A study of Mus with 6 samples.

Results

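The genes described here are the transcription factor gene Atf4 and 9 genes of the integrated stress response, the programme that ATF4 directs. They were chosen by Ensembl ID from a list of 10, and all 10 were found among the 35304 gene IDs of the count table. The list was drawn up with earlier results of these data known. Shares over all IDs given beside these genes therefore describe them and are no test of the set. Expression was measured by RNA sequencing in 4T1 cells, a mouse mammary carcinoma line grown in serum-supplemented medium. One group of 3 libraries came from cells exposed for 24 h to isopimaric acid (IPA), a diterpenoid resin acid of conifers, at 10 µg/mL. The other group of 3 libraries came from cells with no treatment, and no vehicle is named for them. The labels do not say whether replicates were separate cultures, so p-values reflect the spread among these samples alone, and that spread may be technical.

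The integrated stress response starts when a kinase that senses amino acid shortage, endoplasmic reticulum stress, viral RNA or mitochondrial and heme stress phosphorylates the translation initiation factor eIF2 on its alpha subunit. Bulk translation slows, while the mRNA of Atf4 is translated better because of its upstream reading frames. ATF4 protein then switches on genes for amino acid synthesis, one-carbon metabolism and feedback. The level of Atf4 mRNA is therefore not a measure of ATF4 protein, which was not measured here. Mitochondrial damage is a known trigger of this response. The series title names oxidative phosphorylation among the pathways that IPA regulates, and whether that bears on these genes was not tested.

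Values are read counts per gene ID, given as CPM after TMM scaling between libraries (normalised CPM). Library totals ran from 3410411 counts in IPA replicate 1 to 58924711 in untreated replicate 2, so 3 counts correspond to between 0.88 and 0.0509 CPM. Untreated replicate 2 stood apart. Its correlation with the other libraries in log2 CPM, across genes, was 0.779 to 0.811, against 0.922 to 0.987 among the other 5, and its TMM factor was 0.754 against 1.02 to 1.11. For this reason the fold change of each gene is given with and without that library. Since the files pair no other ID with a gene name, the remaining genes of the pathway and marker genes of 4T1 and other cells were not analysed here.

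In the main comparison, of all 6 libraries, 0 of the 10 genes passed, and so did 0 of 24935 IDs. The choice to leave out untreated replicate 2 rests on its values in these data. With untreated replicate 2 left out, 5 of the 10 genes rose with IPA: Ddit3, Asns, Shmt2, Mthfd2 and Phgdh, by 1.58-fold to 1.89-fold. The rest did not pass: Trib3, Sesn2, Psat1 and Atf4 had fitted folds of 1.32, 1.24, 1.19 and 1.16, and Chac1 of 0.88. None was called lower. Among all 25592 IDs tested there, 1.26% were called higher and 2.2% lower (edgeR quasi-likelihood test, adjusted p under 0.05).

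Over all 6 libraries 0 of the 10 genes passed the edgeR test, where 0 of 24935 IDs (0%) were called in either direction. At an unadjusted p under 0.05 there were 4, namely Ddit3, Asns, Shmt2 and Phgdh, all higher, against 1.88% of all IDs higher at that level. DESeq2 on the same 6 libraries called 2 of the 10 higher, Asns and Ddit3, and limma-voom called 0. Of the 18266 IDs to which DESeq2 gave an adjusted p, 0.246% were called higher. Limma-voom with sample quality weights, under which untreated replicate 2 counted little, called the same 5 higher, with 1.97% of IDs called higher. The biological coefficient of variation was 0.57 with all libraries and 0.178 without untreated replicate 2.

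**Figure D1:**
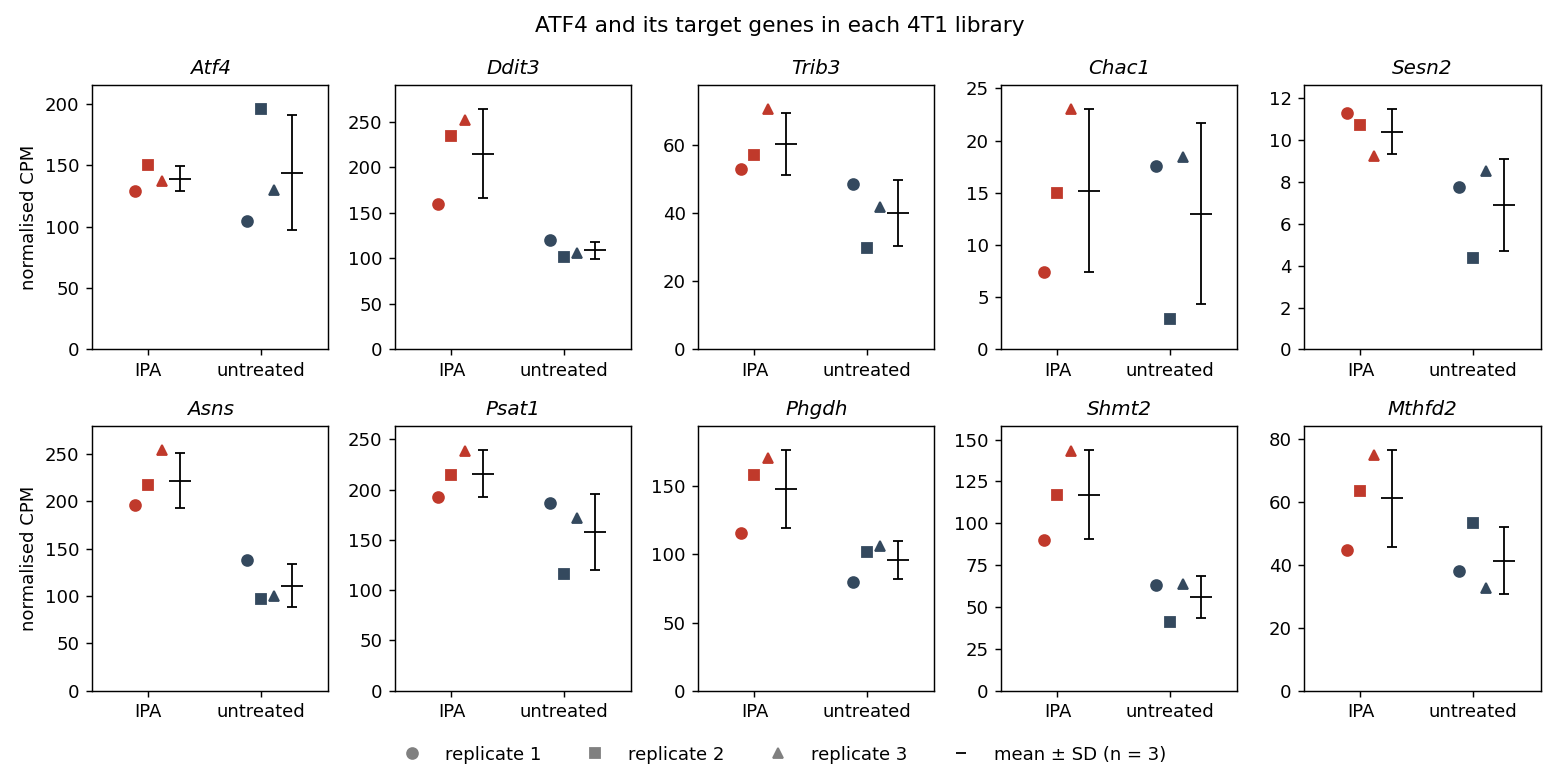
Normalised CPM of the 10 genes in each library, with IPA left of untreated in each panel. Symbols mark replicate numbers, bars the mean ± SD (n = 3), and every axis starts at 0. For Ddit3, Asns and Shmt2 all IPA libraries lie clear of all untreated ones, while the groups overlap for Atf4, Chac1 and Mthfd2.

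Atf4 (ENSMUSG00000042406, chr15:80255184-80257545 in the RefSeq annotation of GRCm38.p6) encodes the transcription factor at the centre of the response. It stood at 129, 150 and 137 normalised CPM in IPA replicates 1, 2 and 3, against 105, 196 and 130 in untreated replicates 1, 2 and 3. The groups overlapped, and untreated replicate 2 was the highest of the 6 libraries. The means were 139 ± 10.2 normalised CPM with IPA and 144 ± 47.0 untreated (SD, n = 3 each). The log2 fold change was -0.05 ± 0.27 (SE) over 6 libraries, with an edgeR adjusted p of 0.952. Leaving out untreated replicate 2 gave 0.22 ± 0.14, and 2 SE on either side spanned -0.05 to 0.49 (adjusted p = 0.466). The sign of the Atf4 difference thus turned with that library, as it also did with library totals in place of TMM (0.22 over 6 libraries), and it passed no test. In bulk RNA, a change in the share of cells of one kind and a change in RNA per cell cannot be told apart, here and for each gene that follows.

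Ddit3 (ENSMUSG00000025408, chr10:127290793-127296291) encodes CHOP, a transcription factor induced by ATF4 that is linked to cell death under prolonged stress. Its level was 160, 234 and 252 normalised CPM in IPA replicates 1, 2 and 3, against 120, 102 and 106 in untreated replicates 1, 2 and 3. Each IPA library lay above each untreated one. The untreated libraries, replicate 2 included, lay close together only after scaling. By library totals alone they had 122, 77 and 108 CPM in untreated replicates 1, 2 and 3. Ddit3 rose by 0.92 ± 0.16 on the log2 scale when untreated replicate 2 was left out (SE; edgeR adjusted p = 0.00357). Over 6 libraries the log2 fold change was nearly as large, 0.98 ± 0.24, with an adjusted p of 0.657. Of the 10 genes Ddit3 had the largest log2 fold change without untreated replicate 2, and 3.58% of all IDs tested had a larger one. The annotated span of Ddit3 shares 77 bases with Mbd6 and 71 with Mars1, and the handling of strand in counting is not given in the sources used here.

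Asns (ENSMUSG00000029752, chr6:7675165-7693209) encodes asparagine synthetase, a classic ATF4 target that responds to amino acid shortage. It had 196, 217 and 254 normalised CPM in IPA replicates 1, 2 and 3, against 138, 96.7 and 99.5 in untreated replicates 1, 2 and 3. The groups did not overlap, and the highest untreated library was replicate 1. Asns rose by 0.89 ± 0.16 on the log2 scale without untreated replicate 2 (SE; edgeR adjusted p = 0.00342). Over 6 libraries the log2 fold change was 1.00 ± 0.23 (adjusted p = 0.657). Like Ddit3 and Shmt2, it was called in each comparison that left out untreated replicate 2 and kept more than 1 library in each group. These comparisons changed the test, scaling, filter or a further library but reused the same samples, so they are not separate support. In single comparisons of this kind 1.19% to 6.52% of all IDs were called in either direction. The share of IDs called in all of these comparisons at once was not counted.

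The other enzymes of amino acid synthesis in the list, Phgdh and Psat1, catalyse successive steps from a glycolytic intermediate towards serine. Phgdh (ENSMUSG00000053398, chr3:98313171-98339969) makes the first and committed step. It stood at 116, 158 and 171 normalised CPM in IPA replicates 1, 2 and 3, against 79.7, 102 and 106 in untreated replicates 1, 2 and 3. The groups did not overlap, but IPA replicate 1 lay closer to the untreated libraries than to the other IPA ones. Phgdh rose by 0.66 ± 0.16 on the log2 scale without untreated replicate 2 (SE; edgeR adjusted p = 0.0258). Over 6 libraries its log2 fold change was 0.63 ± 0.23 (adjusted p = 0.657). A pseudogene, Phgdh-ps1, is annotated in RefSeq, and the treatment of reads that map to several places is not given in the sources used here.

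Psat1 (ENSMUSG00000024640, chr19:15905123-15925059), encodes the transaminase of the next step. It had 193, 215 and 239 normalised CPM in IPA replicates 1, 2 and 3, against 187, 116 and 172 in untreated replicates 1, 2 and 3. The groups did not overlap, yet IPA replicate 1 was barely above untreated replicate 1, and untreated replicate 2 was well below the other libraries. The log2 fold change was 0.45 ± 0.25 (SE) over 6 libraries and 0.25 ± 0.13 without untreated replicate 2, where 2 SE on either side spanned -0.02 to 0.51 (edgeR adjusted p = 0.375).

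Shmt2 and Mthfd2 encode the mitochondrial enzymes that take serine's one-carbon unit into the folate pool and oxidise it. Shmt2 (ENSMUSG00000025403, chr10:127517123-127522444) had 89.7, 117 and 143 normalised CPM in IPA replicates 1, 2 and 3, against 63.0, 41.1 and 63.5 in untreated replicates 1, 2 and 3. The groups did not overlap, and untreated replicates 1 and 3 were almost equal. Shmt2 rose by 0.87 ± 0.16 on the log2 scale without untreated replicate 2 (SE; edgeR adjusted p = 0.00408). Over 6 libraries it had the largest log2 fold change of the 10, at 1.06 ± 0.27 (adjusted p = 0.657). Its annotated span shares 32 bases with Ndufa4l2.

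Mthfd2 (ENSMUSG00000005667, chr6:83305704-83326011) had 44.6, 63.5 and 74.8 normalised CPM in IPA replicates 1, 2 and 3, against 37.9, 53.1 and 32.7 in untreated replicates 1, 2 and 3. Here the groups overlapped, because untreated replicate 2 lay above IPA replicate 1. By library totals alone they did not, at 49.6, 68.7 and 79.0 CPM in IPA replicates 1, 2 and 3 against 38.6, 39.9 and 33.4 CPM in untreated replicates 1, 2 and 3. Mthfd2 thus overlapped only after the scaling that raised untreated replicate 2 above its plain CPM. Mthfd2 rose by 0.79 ± 0.17 on the log2 scale with that library left out (SE; edgeR adjusted p = 0.015). Over 6 libraries the log2 fold change was 0.57 ± 0.29 (adjusted p = 0.657).

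Trib3, Chac1 and Sesn2 are stress outputs of the pathway, and none of them passed the test. Trib3 (ENSMUSG00000032715, chr2:152337425-152344060) encodes a pseudokinase that feeds back on ATF4. It stood at 53.0, 57.2 and 70.6 normalised CPM in IPA replicates 1, 2 and 3, against 48.7, 29.8 and 41.9 in untreated replicates 1, 2 and 3. The groups did not overlap. The log2 fold change was 0.59 ± 0.25 (SE) over 6 libraries and 0.40 ± 0.15 without untreated replicate 2, with edgeR adjusted p-values of 0.657 and 0.157.

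Sesn2 (ENSMUSG00000028893, chr4:132492804-132510456) encodes a leucine sensor that restrains the growth kinase complex mTORC1. It had 11.3, 10.7 and 9.23 normalised CPM in IPA replicates 1, 2 and 3, against 7.77, 4.38 and 8.53 in untreated replicates 1, 2 and 3. The groups did not overlap, and it was the one gene of the 10 whose highest value was in IPA replicate 1. That value rests on 43 counts, with an exact 95% Poisson interval of 8.20 to 15.3 normalised CPM, which covers counting error only and reaches below untreated replicate 3. The log2 fold change of Sesn2 was 0.59 ± 0.36 (SE) over 6 libraries and 0.31 ± 0.23 without untreated replicate 2, with edgeR adjusted p-values of 0.657 and 0.571.

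Chac1 (ENSMUSG00000027313, chr2:119351242-119354326) encodes a glutathione-degrading enzyme and is, like Ddit3, a target of the ATF4 and CHOP arm. Its level was 7.38, 15 and 23.0 normalised CPM in IPA replicates 1, 2 and 3, against 17.6, 2.96 and 18.4 in untreated replicates 1, 2 and 3. Both groups held a low library, untreated replicate 2 and IPA replicate 1, and the ranges overlapped over most of their length. IPA replicate 1 had 28 counts, with an exact 95% Poisson interval of 4.90 to 10.7 normalised CPM, so its distance from the other IPA libraries is larger than counting error. The log2 fold change was 0.25 ± 0.70 (SE) over 6 libraries and -0.18 ± 0.29 without untreated replicate 2, with edgeR adjusted p-values of 0.908 and 0.841. Without that library 2 SE on either side spanned -0.77 to 0.40.

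**Figure D2:**
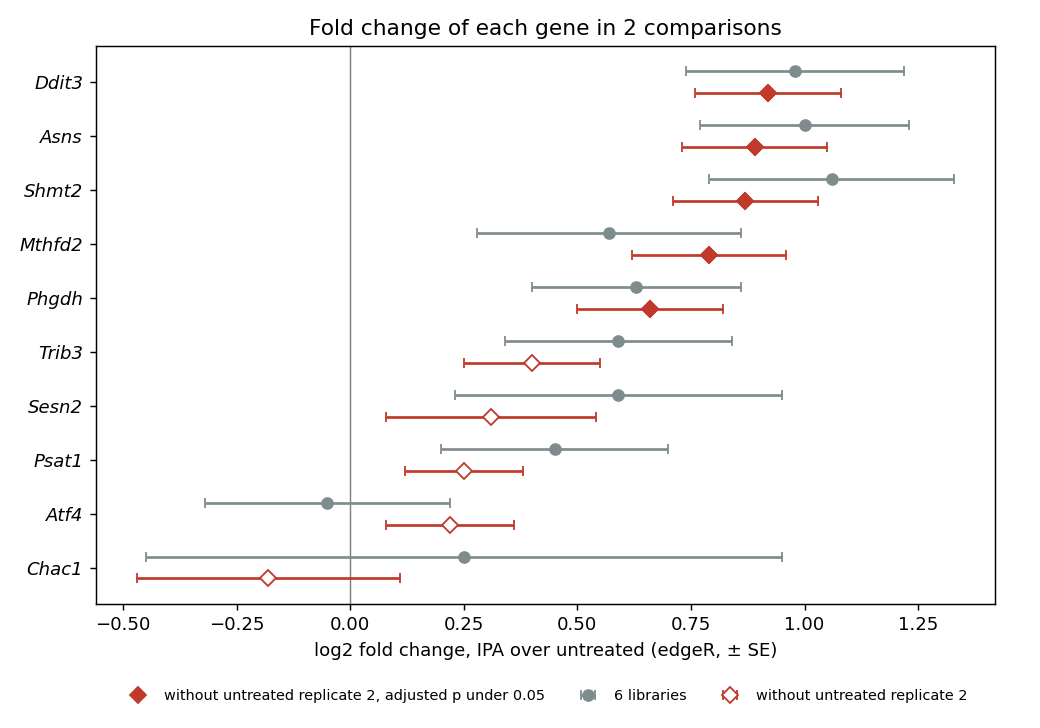
Fold change of each gene, IPA over untreated, on the log2 scale with its SE. Grey circles give the comparison of all 6 libraries and red diamonds the one without untreated replicate 2, filled where the edgeR adjusted p is under 0.05. The 5 filled genes lie between 0.66 and 0.92, and the errors narrow for all 10 when that library is left out.

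As a group, the 10 genes had a median log2 fold change of 0.59 over 6 libraries, against -0.08 over all 24935 IDs. The medians without untreated replicate 2 were 0.53 for the 10 genes and -0.04 over all IDs. With library totals the median over all IDs in the 6 libraries moved to 0.13 and that of the 10 genes to 0.79, so the distance between them stayed at 0.67. In both comparisons 9 of the 10 genes had a positive log2 fold change, against 45.5% of IDs over 6 libraries and 45.8% without untreated replicate 2. The exception was Atf4 over 6 libraries and Chac1 without untreated replicate 2. By role, the median log2 fold change without untreated replicate 2 was 0.83 for the pair of mitochondrial one-carbon enzymes, 0.66 for the 3 amino acid synthesis enzymes, 0.57 for the pair of transcription factors and 0.31 for the 3 stress outputs. Over 6 libraries the medians were 0.81, 0.63, 0.46 and 0.59 in the same order, so the low place of the stress outputs held only with untreated replicate 2 left out. Each median rests on few genes and can hide their spread. Without untreated replicate 2, Atf4 had 0.22 against 0.92 for Ddit3, and Psat1 had 0.25 against 0.66 for Phgdh. Shmt2 and Mthfd2 lay closer together, at 0.87 and 0.79.

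**Figure D3:**
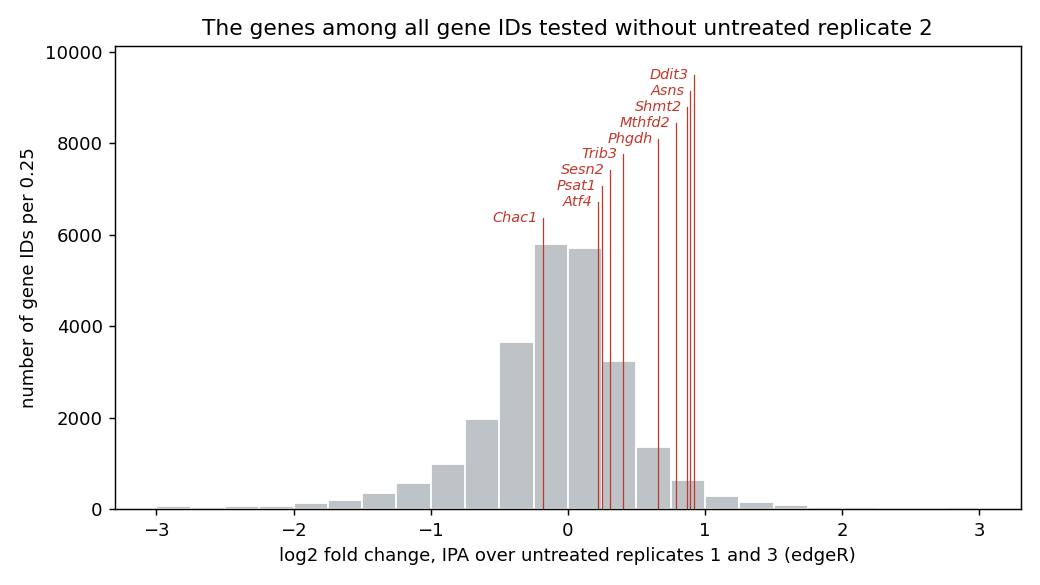
Histogram of the log2 fold changes of all 25592 IDs tested without untreated replicate 2, with a red line for each of the 10 genes. Bars count IDs in steps of 0.25, and the outermost bars also hold the IDs beyond the axis. Ddit3, Asns, Shmt2 and Mthfd2 lie in the upper tail, with 3.58% to 4.95% of IDs above them, and Chac1 lies left of 0.

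By normalised CPM, 7 of the 10 genes were higher in every IPA library than in every untreated one, and none was lower in every one. Among all IDs 9.49% were higher without overlap and 10.8% lower. For each of the 7, an exact two-sided permutation test of mean log2 CPM gave p = 0.1, the smallest that 3 libraries against 3 can give. Untreated replicate 2 was the lowest of the 6 libraries for 7 of the 10 genes, against 38.8% of all IDs. Set against untreated replicates 1 and 3 only, 8 of the 10 genes were higher in every IPA library, against 14.2% of all IDs. The 2 exceptions were Atf4, where IPA replicate 1 at 129 lay just below untreated replicate 3 at 130 normalised CPM, and Chac1.

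The size of the difference also varied among the IPA libraries. IPA replicate 3 was the highest of all 6 libraries for 8 of the 10 genes, against 17.5% of all IDs. IPA replicate 1, the shallowest library, was the lowest of the 3 for 9 of the 10 genes, against 51% of all IDs. Relative to the mean of untreated replicates 1 and 3, Ddit3 stood at 1.41 in IPA replicate 1, and at 2.08 and 2.23 in IPA replicates 2 and 3. Shmt2 stood at 1.42, 1.85 and 2.26 in the same order. Without untreated replicate 2 and IPA replicate 1 together, the same 5 genes rose, with log2 fold changes of 1.11 for Ddit3, 1.05 for Shmt2, 1.00 for Asns, 0.98 for Mthfd2 and 0.83 for Phgdh. The edgeR adjusted p-values ran from 0.000351 to 0.00552, where 2.88% of IDs were called higher. The part of depth in the lower values of IPA replicate 1 was not tested.

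The 5 calls also leaned on the remaining libraries. With untreated replicate 2 and IPA replicate 3 left out, 3 of the 10 genes were called higher (Ddit3, Asns and Shmt2). In that comparison 131 of 23849 IDs were called higher. With both untreated replicates 2 and 3 left out, Asns had the lowest log2 fold change of the 5 genes, 0.66, and Phgdh the highest, 0.88. With untreated replicates 1 and 2 left out, Phgdh had the lowest and Asns the highest. In these last comparisons a single untreated library remained, assumed to vary like the IPA libraries, so only fold changes are given for them. The log2 fold changes of the 5 genes stayed positive in all of them, from 0.49 for Phgdh to 1.15 for Asns.

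Ratios of read counts between genes of the same library do not depend on scaling between libraries. A ratio that differs does not show which of the pair moved. Of all 45 ratios among the 10 genes, 10 did not overlap between the groups, against 23.5% of all pairs of IDs with at least 10 counts in each library. Separated ratios were thus no more frequent here than among gene pairs in general, and the following values only describe these genes. The ratios of Ddit3, Asns, Shmt2 and Phgdh to Atf4 were among the 10, each higher in IPA libraries. The ratio of Ddit3 to Atf4 counts was 1.23, 1.57 and 1.84 in IPA replicates 1, 2 and 3, against 1.15, 0.523 and 0.813 in untreated replicates 1, 2 and 3. That of Asns to Atf4 was 1.51, 1.45 and 1.86 in IPA replicates 1, 2 and 3, against 1.32, 0.493 and 0.763 in untreated replicates 1, 2 and 3. Untreated replicate 1 came close to the IPA libraries in both, and the gap rests mainly on untreated replicates 2 and 3.

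Against Psat1, 3 of the 9 ratios separated the groups. Shmt2 to Psat1 was 0.466, 0.544 and 0.598 in IPA replicates 1, 2 and 3, against 0.337, 0.356 and 0.368 in untreated replicates 1, 2 and 3. Asns to Psat1 was 1.02, 1.01 and 1.06 in IPA replicates 1, 2 and 3, against 0.738, 0.837 and 0.577 in untreated replicates 1, 2 and 3. In the ratio of Shmt2 untreated replicate 2 lay between the other untreated libraries, unlike in most single-gene values. In the ratio of Asns it was the highest of the untreated libraries. The third, Trib3 to Psat1, barely separated, at 0.275, 0.266 and 0.295 in IPA replicates 1, 2 and 3, against 0.261, 0.258 and 0.243 in untreated replicates 1, 2 and 3.

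The rest of the 10 separated ratios were Ddit3 to Mthfd2, Asns to Trib3 and Shmt2 to Trib3, each higher in IPA libraries. Ddit3 to Mthfd2 barely separated, at 3.36 in IPA replicate 3 against 3.25 in untreated replicate 3. Ratios outside these 10 overlapped between the groups. Ddit3 and Asns kept nearly the same proportion, with a ratio of Ddit3 to Asns of 0.815, 1.08 and 0.992 in IPA replicates 1, 2 and 3, against 0.869, 1.06 and 1.07 in untreated replicates 1, 2 and 3. Phgdh to Psat1 was 0.604, 0.732 and 0.716 in IPA replicates 1, 2 and 3, against 0.427, 0.880 and 0.614 in untreated replicates 1, 2 and 3. No ratio with Chac1 separated the groups. For each ratio that did not overlap, the exact two-sided permutation p was 0.1, the smallest possible, so none of the 45 can pass an adjustment over the family.

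**Figure D4:**
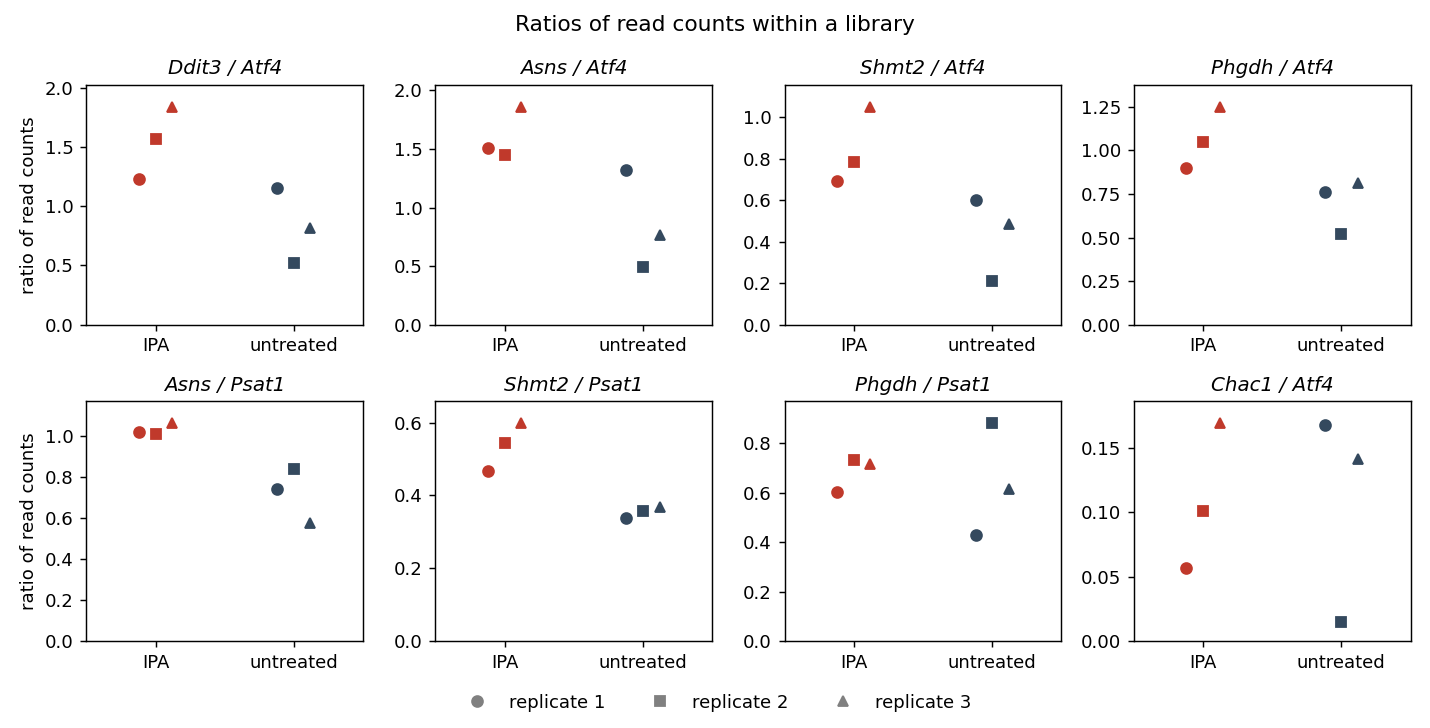
Ratios of read counts between genes of the same library, with IPA left of untreated in each panel, symbols for replicate numbers and axes from 0. The panels are a selection in which most ratios separated the groups. Of all 45 ratios among the 10 genes, 10 did so, against 23.5% of all pairs of IDs with at least 10 counts in each library. Shmt2 / Psat1 runs from 0.466 to 0.598 in IPA libraries and from 0.337 to 0.368 in untreated ones, while Phgdh / Psat1 and Chac1 / Atf4 overlap.

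All reads of the 10 genes together took a share of 0.111%, 0.134% and 0.145% in IPA replicates 1, 2 and 3, against 0.0817%, 0.0559% and 0.0796% in untreated replicates 1, 2 and 3. The lowest IPA share lay above the highest untreated share. These shares use library totals without TMM scaling, where the factor was 0.754 for untreated replicate 2 and 1.06 to 1.11 for the IPA libraries. They restate the counts given above, and shares of other gene sets were not compared.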

How the data were processed

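RNA of 3 IPA-treated and 3 untreated 4T1 samples was sequenced. Groups and replicate numbers come from the sample titles, and the treated columns, which carry a shorter abbreviation, were matched to titles by letter and number. The authors deposited unnormalised read counts for 35304 Ensembl IDs, per the file headers and its whole-number values. GRCm38 and mm10 are named in the submitters' processing notes. Aligner, counter, annotation release and treatment of strand and multiple mapping: not given in the sources used here. Every ID had at least 7 counts in total.

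The reference table (RefSeq, GRCm38.p6, 49997 genes) has 0 Ensembl IDs. The 10 genes were named by the list that chose them, and their positions were taken by symbol. The 6 further gene lists and the marker lists, fixed by symbol, and a promoter motif search, for lack of sequences, were not run. The members and lists were chosen with earlier results of these data known. All 10 genes were named and all 10 passed the low-count filter.

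Counts were tested with edgeR 4.0.16 (robust quasi-likelihood F-test, TMM, filterByExpr) in R 4.3.3, over all IDs, with Benjamini-Hochberg adjustment and a threshold of 0.05. The SE is the log2 fold change divided by the square root of F. Log2 CPM used a prior count of 2. DESeq2 1.42.0 and limma 3.58.1 were alternatives. Procedures were tested on simulated counts, whose results are not given here. No simulated library was set apart as untreated replicate 2 was. No replicates agreed within sampling noise (lowest chi-square per degree of freedom 6.74). For each of the 10 genes, 0 other IDs had counts within 2% in every library.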

Additional observations from a re-analysis of the deposited data

How the results depend on the processing

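Over 6 libraries the count of IDs called was 0 with limma-voom, RLE and upper-quartile factors and the filter at 1 CPM, and 1 with library totals or no filter, with 0 of the 10 genes called in each. DESeq2 called 128 IDs and 2 of the 10 genes, and limma-voom with quality weights (0.0388 for untreated replicate 2) called 1247 and 5. With 1 library left out in turn there were 0 to 886 IDs and 0 to 5 of the 10 genes, and only the fit lacking untreated replicate 2 was above 0. Without it, 5 of the 10 were called in each further planned setting, though that library had been singled out by its values in these data. The IDs called were 1301 (5.08%) with DESeq2, 1669 (6.52%) with limma-voom and 1018 (3.98%) with library totals. The DESeq2 share is over all 25592 IDs fitted, with or without an adjusted p. They were 845 (3.3%) with RLE factors, 890 (3.48%) with upper-quartile factors and 1450 (4.21%) with no filter. With library totals 67.9% of the calls were higher, against 36.3% with TMM. Without IPA replicate 1 as well, 1482 IDs (5.93%) were called. Further pairs of left-out libraries were chosen after seeing the data. Untreated replicate 2 with IPA replicate 2 or IPA replicate 3 gave 465 and 284 IDs (1.98% and 1.19%) and 5 and 3 of the 10 genes. Untreated replicate 2 with untreated replicate 1 or untreated replicate 3 left a single untreated library, so calls are not given for these pairs. None of the 10 was called lower in any setting. Why the settings differ beyond the libraries they use was not tested.

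The log2 fold change of Atf4, -0.05 over 6 libraries, changed sign with limma-voom (0.002), quality weights (0.28), library totals (0.22) and without IPA replicate 1 (0.01). Without untreated replicate 2 it was 0.22, and 0.24 with DESeq2, 0.22 with limma-voom, 0.32 with library totals, 0.24 with RLE factors, 0.21 with upper-quartile factors and 0.25 with no filter. With a second library left out it was 0.29, 0.20 and 0.27 (IPA replicates 1, 2 and 3), 0.08 (untreated replicate 1) and 0.38 (untreated replicate 3). That of Chac1, 0.25 over 6 libraries, changed sign with quality weights (-0.09) and without IPA replicate 3 (-0.19), the lowest with 1 library left out, where the highest was 0.59. It was 0.84 with limma-voom and 0.48 with the replicate block. Without untreated replicate 2 it was -0.18, and -0.23 with DESeq2, -0.10 with limma-voom, -0.08 with library totals, -0.16 with RLE factors, -0.20 with upper-quartile factors and -0.14 with no filter. With IPA replicate 2, IPA replicate 3, untreated replicate 1 or untreated replicate 3 also left out it was -0.11, -0.56, -0.20 and -0.16, but 0.09 with IPA replicate 1 also left out. Neither gene was called in any of 26 settings, with adjusted p-values from 0.134 to 0.999 for Atf4 and from 0.428 to 0.998 for Chac1. The other 8 genes kept a positive log2 fold change in all 26.

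With the replicate block 0 IDs and 0 of the 10 genes were called, and the log2 fold changes were 0.95 for Ddit3, 1.01 for Asns and 1.07 for Shmt2. The deviations of samples sharing a number had correlations of -0.0771, 0.0183 and 0.161, so the numbers were not taken to pair the samples. Depth limits IPA replicate 1 most, with 28 counts of Chac1 and 43 of Sesn2.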
